A study of Apis mellifera with 2 samples.

Results

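Cyp4g11, CYP6AQ1 and FAR1 are 3 genes of the honey bee, Apis mellifera, that encode 2 cytochrome P450 enzymes and a fatty acyl reductase. They were taken by symbol from the RefSeq gene table and picked because of their levels in these libraries, so the differences between the stages given for them are a description and carry no test. They hold 14 of the 23471 listed coding sequences and are 3 of the 9935 genes. The series covers hemocytes, the circulating blood cells of insects, of the subspecies carnica at 2 life stages, with 1 library per stage. For the adult stage, brood frames were held at 34 °C until emergence and newly emerged bees, under 1 day old, were taken at 24 h intervals. For the larval stage, worker larvae of instar 5, aged 8 days, were used. The labels name no treatment for either stage. Each RNA preparation used the pellet of 320 µL of hemolymph, the protocol names no sorting of the cells, and the number of insects behind each pellet was not found in the labels.

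Insect cytochrome P450 enzymes are membrane-bound heme proteins that oxidise hormones, lipids, plant toxins and pesticides. Enzymes of the CYP4G subfamily make the hydrocarbons of the cuticle from long-chain fatty aldehydes, and in Drosophila they act in oenocytes, secretory cells that lie near the epidermis and the fat body. Fatty acyl reductases stand upstream of that step: they reduce fatty acyl-CoA to aldehydes or alcohols, which also serve as wax and pheromone precursors. CYP6 enzymes, the family of CYP6AQ1, are known for the oxidation of plant compounds and insecticides. PPO, the prophenoloxidase that insect hemocytes make, was the single gene of the hemocyte marker list with a row, at 14041 CPM (counts scaled for depth) for the adult and 28019 CPM for the larva.

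Both P450 genes were far higher in the adult library, while the reductase gene was low in both and somewhat lower in the adult one. Estimated counts of Cyp4g11 were 1612 (adult) and 27 (larva), those of CYP6AQ1 were 11774 and 1152, and those of FAR1 were 95 and 125. Depth was similar, at 16880784 estimated counts for the adult and 17657463 for the larva. CPM, or counts per 1000000, are estimated counts divided by library totals scaled with TMM, a method that sets the bulk of genes level between the libraries. Intervals are exact 95% intervals of the counting error and do not cover variation between animals, for which there are no replicates. In whole pellets, fewer cells of a type and less RNA per cell cannot be told apart.

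**Figure D1:**
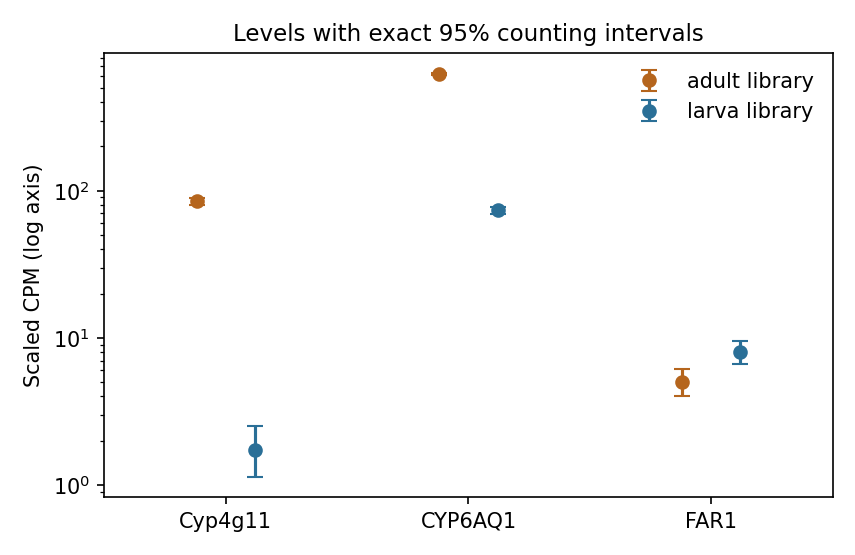
Level of each gene in scaled CPM (log axis) in the adult and the larval library, with exact 95% counting intervals, 1 library per stage. Cyp4g11 stands at 84.6 against 1.73 CPM and CYP6AQ1 at 618 against 73.6 CPM, while FAR1 stands at 4.99 against 7.99 CPM.

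FAR1, the fatty acyl reductase gene, stood at 4.99 CPM in the adult library, with an interval of 4.03 to 6.10. In the larval library it stood at 7.99 CPM (6.65 to 9.52). The counting intervals did not overlap on this scale, and the larval level was the higher. The ratio of larva to adult was 1.602 (1.22 to 2.11), which is far from the 4-fold size used here to call a difference large. Differences of this kind were common: for 40.9% of the 8798 genes compared, those with a joint count of 10 or more, the interval of the ratio lay wholly on the larval side. With plain totals in place of TMM the log2 fold (adult over larva) came to -0.33, and its interval, -0.73 to 0.07, held 0, so the size of the FAR1 difference rests on the scaling. Per length, the authors' TPM (transcript levels corrected for length and depth) of FAR1 were 2.96 (adult) and 3.24 (larva), close to each other. By TPM it ranked 7447th of 9935 genes in the adult and 6853rd in the larva.

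Cyp4g11, the member of the CYP4G subfamily, stood at 84.6 CPM (80.5 to 88.8) in the adult library. In the larval library it stood at 1.73 CPM (1.14 to 2.51). The adult level was 49.0 times the larval one, with an interval of 33.6 to 74.6. Cyp4g11 met the size rule for a large difference, which asks for at least 4-fold, an interval wholly beyond 4-fold and a higher level of 10 CPM or more. On the adult side 3.14% of the 8798 compared genes met this rule, and on the larval side 2.72%. Of the compared genes, 51 had a higher log2 fold than Cyp4g11. By TPM it moved from rank 3187 of 9935 genes in the adult library, at 44.8 TPM, to rank 7911 in the larval library, at 0.627 TPM.

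The 27 larval counts of Cyp4g11 came to 1.67% of its adult counts (1.11 to 2.43). Among 3579 genes with at least 1000 adult counts, 13 had a lower share. The lowest, 0.124% (0.0338 to 0.317), belonged to LOC412818. LOC412818 was picked as the lowest of the 3579 genes, and its interval does not allow for that choice. Nearly every share lies above it, so no conclusion is drawn from that comparison. The larval count of Cyp4g11 lay above the 3 counts that a count of 0 allows, which correspond to 0.192 CPM in the larval library.

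CYP6AQ1, the member of the CYP6 family, had the highest level of the 3 genes in both libraries, by CPM and per length by TPM. Its level was 618 CPM (607 to 629) for the adult and 73.6 CPM (69.4 to 78.0) for the larva. The adult level was 8.39 times the larval one (7.90 to 8.92), and CYP6AQ1 also met the size rule on the adult side. Its fold was exceeded by 309 of the 8798 compared genes. By TPM it ranked 432nd of 9935 genes in the adult library, at 375 TPM, and 3251st in the larval library, at 31.3 TPM. It exceeded 95.7% of all genes by TPM in the adult and 67.3% in the larva, while Cyp4g11 exceeded 67.9% and 20.4%.

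**Figure D2:**
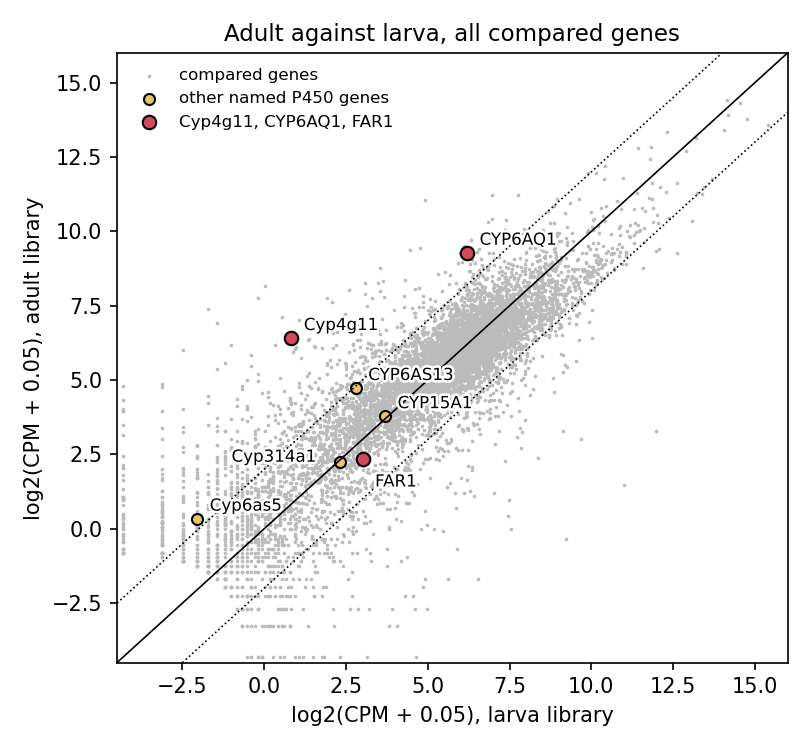
Each grey point is 1 of the 8798 compared genes, with log2(CPM + 0.05) in the larval library on the x axis and in the adult library on the y axis; the solid line marks equal levels and the dotted lines 4-fold differences. Cyp4g11 and CYP6AQ1 lie above the upper dotted line, and FAR1 lies between the dotted lines just below the solid one.

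Ratios between genes within a library do not depend on how the libraries are scaled. Per length, Cyp4g11 was 15.1 times FAR1 in the adult library by TPM. In the larval library the order was the opposite, with FAR1 5.17 times Cyp4g11. The count ratio of Cyp4g11 to FAR1 was 78.6 times higher in the adult than in the larval library, with an interval of 48.4 to 129.5 (exact conditional interval of the odds ratio). Cyp4g11 and FAR1 thus differed between the libraries by unequal factors.

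CYP6AQ1 exceeded Cyp4g11 in both libraries, by 8.37 times in TPM (adult) and by 49.96 times (larva). The difference between the stages was thus wider for Cyp4g11 than for CYP6AQ1, by 5.84 times (3.98 to 8.93). By TPM, CYP6AQ1 was 127 times FAR1 (adult) and 9.66 times FAR1 (larva).

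How the scaling was done moved all 3 log2 folds together. The median log2 fold of all compared genes was 0.02 with TMM, 0.37 with unscaled totals and 0.55 with TPM. Relative to that median, Cyp4g11 stood at 5.57 with TMM and with plain totals and at 5.61 with TPM. CYP6AQ1 stood at 3.05, 3.05 and 3.035, and FAR1 at -0.70, -0.70 and -0.68. A change of library totals moves every log2 fold by the same amount. The equal distances with TMM and plain totals were thus fixed in advance and are no separate support for a FAR1 difference.

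**Figure D3:**
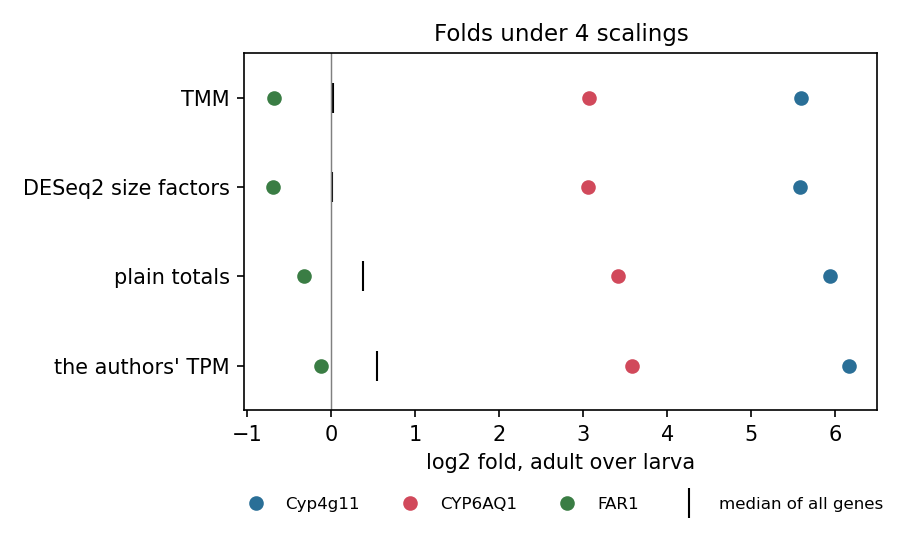
Log2 fold of adult over larva (x axis) of the 3 genes under 4 scalings (rows), with the median of all compared genes as a black tick. FAR1 goes from -0.68 with TMM to -0.13 with the authors' TPM while the median tick goes from 0.02 to 0.55. Between TMM, DESeq2 size factors and plain totals the distance from gene to tick cannot change, since these move all genes alike.

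RefSeq lists several coding sequences for each gene, and kallisto, the program that gave the estimates, divides a read pair that matches more than 1 sequence among them. Sequences of 1 gene that had the same length and the same estimates in both libraries are treated here as 1 group, since the estimates do not separate them. The summed estimates of Cyp4g11, CYP6AQ1 and FAR1 were whole numbers within a tolerance of 0.01 in both libraries. Of the compared genes, 3.31% were off by more than that in at least 1 library, as happens when read pairs are divided with another gene.

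The 6 coding sequences of FAR1 all had a length of 1551 bases and the same estimates, 15.8 counts each (adult) and 20.8 counts each (larva). They form a single group, so no isoform share can be given for FAR1.

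Cyp4g11 has 4 coding sequences, of 1707, 1683, 1683 and 1647 bases. In the adult library all 1612 estimated counts went to the longest, and the other 3 were estimated at 0. By counting error alone, 0 allows up to 0.186% of the gene's counts for each. That figure does not cover the division of read pairs that match several of these sequences, so the true limit is looser. In the larval library 23.7 of the 27 counts went to the longest and 3.26 to the shortest, while the pair of 1683 bases stayed at 0. As rounded counts the shortest held 11.1% of the larval counts, with an interval of 2.35 to 29.2%. This rests on an estimate of 3.26 counts from divided read pairs. The longest sequence had the highest estimate in both libraries, and counting error alone puts its larval share between 70.8 and 97.7%. Neither larval interval covers the error of dividing shared read pairs.

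CYP6AQ1 has 4 coding sequences in 2 groups, a pair of 1545 bases and a pair of 1314 bases. The long pair held 10886 adult and 929 larval counts, and the short pair 888 adult and 223 larval counts. The short pair thus made up 7.54% of the gene's adult counts (7.07 to 8.03) and 19.4% of its larval counts (17.1 to 21.8). Its share was higher in the larval library by more than counting error, although the intervals do not cover the error of dividing shared read pairs. Corrected for effective length with TPM, the shares of the short pair were 9.05% and 22.7%.

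In levels, the long pair stood at 571 CPM against 59.4 CPM, adult over larva, a ratio of 9.62 (8.998 to 10.3). The short pair stood at 46.6 against 14.2 CPM, a ratio of 3.27 (2.82 to 3.804). Both groups were higher in the adult library, the long pair by the wider ratio. Differences in share of this size were common: among 2687 genes with at least 2 groups and 100 counts in each library, 38.8% had a group whose share differed by at least 10 percentage points. The widest difference of CYP6AQ1 was 11.8 percentage points, the median over these genes was 6.85, and 34.6% had a wider one. The mean fragment, read from coding length minus effective length plus 1, was 266 bases in the adult and 283 bases in the larva, and its part in the shares was not tested.

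**Figure D4:**
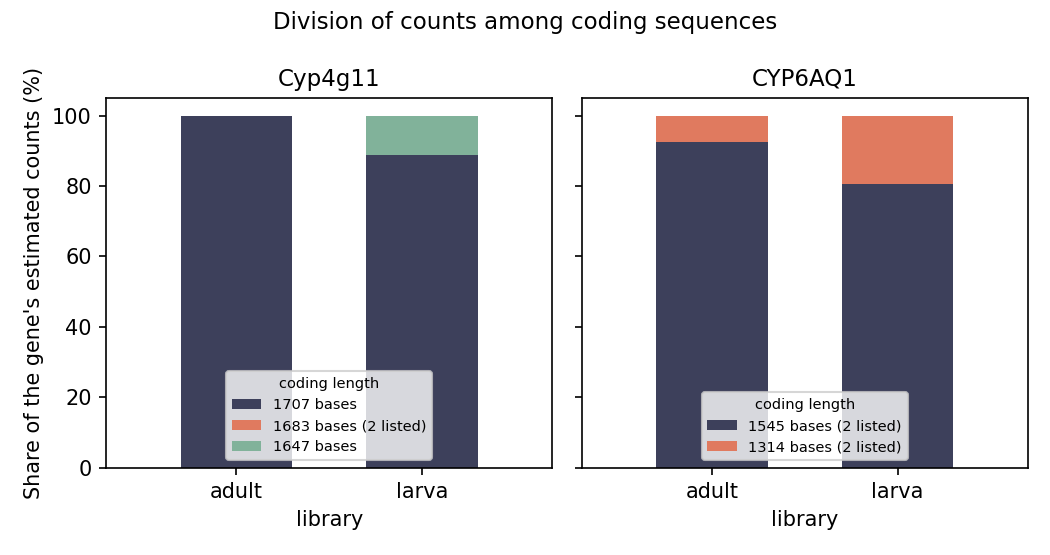
Share of each gene's estimated counts (%) held by its coding sequences, grouped by coding length, in the adult and the larval library. The short pair of CYP6AQ1 takes 7.54% in the adult and 19.4% in the larval bar, and the longest sequence of Cyp4g11 takes 100% and 88.9%.

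The gene table pairs 7 genes of these files with a P450 name, as a symbol or a synonym, and P450 genes known by a locus number alone were not analysed here. Of the 7, 6 had at least 10 counts over both libraries, 2 met the size rule on the adult side (Cyp4g11 and CYP6AQ1) and 0 on the larval side. These 2 genes were chosen for their values, so the count says nothing beyond them. The other 5 genes had no member past the size rule. Over all compared genes 3.14% (adult) and 2.72% (larva) met it, so this count is near the share over all genes. Cyp314a1, Cyp6as5 and CYP6AS11 were under 10 CPM in both libraries, so their failure was fixed in advance. The 4 of these 5 genes with at least 10 counts had a median log2 fold of 1.00, against 0.02 over all compared genes. That median was 0.08 when all 5 were kept or when at least 100 counts were asked for.

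Several CYP6AS enzymes of the honey bee oxidise flavonols of honey and pollen. CYP6AS13 (LOC551028) stood at 26.3 CPM (adult) and 6.90 CPM (larva), and the ratio was 3.82 (3.09 to 4.74). This lies on the adult side beyond counting error, like 41.8% of compared genes. Cyp6as5 had 23 adult and 3 larval counts, a ratio of 6.30 (1.90 to 32.8), and its adult estimate was not whole (off by 0.15), so some of its read pairs were divided with another gene. CYP6AS11 (LOC724946) had 0 adult and 2 larval counts, both at or under the 3 counts that a count of 0 allows.

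The other 2 named P450 genes act on hormones. Cyp314a1, known in Drosophila as shade, the enzyme that turns ecdysone into its active form, stood at 4.72 CPM (adult) and 4.92 CPM (larva). The ratio of adult to larva was 0.960, and its interval, 0.700 to 1.32, held 1. With plain totals (log2 fold 0.29) and with TPM (0.59) the adult level was the higher, so no direction is given for Cyp314a1. CYP15A1 (LOC551179), which in cockroaches makes the epoxide of juvenile hormone, stood at 13.6 and 12.9 CPM, with a ratio of 1.06 (0.876 to 1.28). With TMM, the interval of Cyp314a1 allows a larval level up to 1.43 times the adult one, or an adult level up to 1.32 times the larval one. That of CYP15A1 allows a larval level up to 1.14 times the adult one, or an adult level up to 1.28 times the larval one. With plain totals (log2 fold 0.43) and with TPM (0.63) CYP15A1 lay further on the adult side. These limits thus do not cover the choice of scaling.

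Per length, the order of the named P450 genes differed between the libraries. In the adult library the TPM fell in the order CYP6AQ1 at 375, Cyp4g11 at 44.8, CYP6AS13 at 16.4, CYP15A1 at 8.34, Cyp314a1 at 3.16 and Cyp6as5 at 0.752, with no overlap of counting intervals between neighbours. In the larval library the order was CYP6AQ1 at 31.3, CYP15A1 at 5.39, CYP6AS13 at 2.93, Cyp314a1 at 2.10, Cyp4g11 at 0.627 and Cyp6as5 at 0.0813. There the intervals of CYP6AS13 (2.41 to 3.54) and Cyp314a1 (1.66 to 2.62) overlapped, while that of Cyp4g11 (0.413 to 0.912) lay below both. CYP6AQ1 held 83.6% of the summed TPM of the 7 genes for the adult and 73.7% for the larva, and Cyp4g11 held 9.996% and 1.48%.

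**Figure D5:**
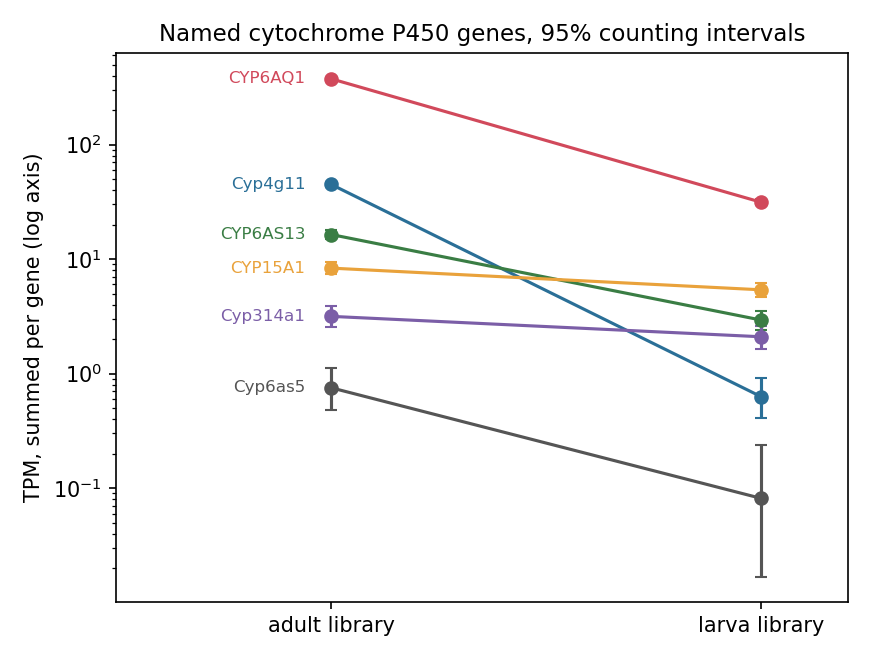
TPM summed per gene (log axis) of 6 named P450 genes in the adult and the larval library, with 95% counting intervals; CYP6AS11, with 0 adult counts, is left out. Cyp4g11 crosses CYP6AS13, CYP15A1 and Cyp314a1, going from 44.8 to 0.627 TPM, while CYP6AQ1 is the highest in both libraries.

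Other detoxification genes with a symbol lay mostly on the larval side. Of 5 such genes, 4 had at least 10 counts, and 0 of them met the size rule on either side. Of all compared genes 3.14% (adult) and 2.72% (larva) met it, so this count is near the share over all genes. GstD1, a glutathione S-transferase, stood at 25.1 CPM (adult) and 55.8 CPM (larva), and GstS1, another one, at 9.76 and 18.8 CPM. Est-6, an esterase gene, stood at 3.36 and 14.3 CPM, a ratio of larva to adult of 4.26 (3.22 to 5.72). The intervals of these 3 ratios lay wholly on the larval side. That of Gstcd, listed for its symbol alone, at 61.6 and 55.9 CPM, lay on the adult side. Over all compared genes the shares were 40.9% (larval side) and 41.8% (adult side), and 4 genes are too few to be set against them. With at least 10 counts, the list had a median log2 fold of -1.05, against 0.02 over all compared genes. GstS4 had 4 counts in each library.

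Besides CYP15A1, the juvenile hormone list held Jhe, the esterase that degrades the hormone, and LOC724216, listed with the synonym jhamt, the methyltransferase late in its synthesis. Jhe stood at 7.87 CPM (adult) and 18.98 CPM (larva), a ratio of larva to adult of 2.41 (1.97 to 2.95). LOC724216 had 4 adult and 36 larval counts, a ratio of larva to adult of 10.96 (3.93 to 42.4). Both were on the larval side beyond counting error, like 40.9% of compared genes. FAR1, placed there by its symbol, was the single gene of the hydrocarbon and fatty acid synthesis list. The list of electron partners of P450 enzymes had no gene with a matching symbol.

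Some markers of other tissues also differed between the libraries. Of the oenocyte markers listed, Cyp4g11 and FAR1 themselves were the 2 with a row, so the list gives no separate measure of oenocytes. The 24 genes of the cuticle and epidermis list summed to 766 TPM in the adult and 288 TPM in the larva. In CPM, which are not corrected for length, the sums were nearly level, at 88.5 (adult) and 79.5 (larva). Of these genes, 17 had at least 10 counts, with 1 past the size rule on each side. Over all compared genes 3.14% (adult) and 2.72% (larva) met the rule, and 17 genes are too few to be set against these shares. The apidermin genes Apd-1, Apd-2 and Apd-3, which encode cuticle proteins of the bee, had 102, 381 and 65 adult counts, and all 3 were at 0 in the larva. Against a floor of 3 larval counts per gene they were at least 27.9-fold, 104-fold and 17.8-fold higher in the adult library, while CPF1, another cuticle gene, stood at 3.88 CPM (adult) and 20.4 CPM (larva). Of the 24, 4 were at 0 in the adult and 7 in the larva. Over all 9935 genes, 9383 had a count in the adult and 9245 in the larva. The 4 listed genes with an apidermin name, one of them at 0 in both libraries, made up 480.5 of the adult TPM. The other 20 genes, a split chosen after the values were seen, summed to 285 TPM (adult) and 288 TPM (larva), and the 17 genes with at least 10 counts had a median log2 fold of 0.08. The 7 fat body genes went mostly the other way, with a sum of 45.5 TPM in the adult and 1555 TPM in the larva. Vg, the yolk protein precursor, was the exception, with 2280 adult and 5 larval counts. The 13 neuronal genes summed to 947 TPM (adult) and 192 TPM (larva), with 2 at 0 in the adult and 4 at 0 in the larva. Syt1, a synaptotagmin gene, held 804 and 123 TPM of these sums, and the median log2 fold of the 10 neuronal genes with at least 10 counts was 0.53. The 7 muscle genes summed to 90.3 TPM and 84.7 TPM, while their median log2 fold with TMM was -0.38, on the larval side. The part of these tissues in the levels of Cyp4g11, CYP6AQ1 and FAR1 was not tested.

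With 2 libraries, genes most like a member in pattern are those nearest to it in the pair of log2 CPM values, among genes with a symbol. Nearest to Cyp4g11 was Mblk-1, a transcription factor, at a distance of 0.366 log2 units, with 66.3 CPM (adult) and 1.85 CPM (larva). The next, PGRP-S3, NLG-4, Mrjp7 and Mrjp8, lay between 1.41 and 1.80 log2 units away. Nearest to CYP6AQ1 were Pkc, at 620 and 64.0 CPM and a distance of 0.203, and Syt20, at 487 and 61.2 CPM and a distance of 0.434, followed by Tpx-4, Ip3k and Gtpx1 at 0.920 to 1.41. Nearest to FAR1 were Obp14, Adk1, Ac3, ACSF2 and Cyp314a1, between 0.392 and 0.700 log2 units away. Each of these likenesses rests on 2 libraries.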

How the data were processed

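Polyadenylated RNA of hemocytes was sequenced as read pairs of 150 bases, per the labels' protocols, in 1 adult and 1 larval library. For each coding sequence the authors deposited an estimated count and a TPM, made with kallisto per the submitters' processing notes, with effective lengths beside them per the file headers. Version, index, genome build and strand setting were not stated there, so overlapping antisense genes may share reads. All 23471 coding sequences matched a gene of the RefSeq table (Amel_HAv3.1), which was used for names and gene order alone, and gave 9935 genes, 398 with a symbol.

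Estimated counts were summed per gene and rounded. TMM factors were 1.13 for the adult and 0.886 for the larva (edgeR 4.0.16 under R 4.3.3). Unscaled (plain) totals, DESeq2 1.42.0 size factors and TPM were alternatives. Log2 folds used a prior of 0.5 counts, and ratios none. Intervals were Clopper-Pearson (ratios, shares), Poisson (CPM, TPM) or conditional (odds ratio), by scipy 1.17.1. They cover counting error only, since PCR copies are not independent molecules. With 1 library per stage there was no test, and every value compares these 2 libraries. The functions were tested on simulated data.

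The members, lists and size rule were chosen with earlier results of these data known. Genes were named by rule: all members, all named P450 genes, members of the pathway and marker lists, chromosomal neighbours and nearest patterns. The cuticle and fat body examples, LOC412818 and the grouping of coding sequences were chosen after values were seen. Synonyms in the gene table were used beside symbols. A heme motif search and a protein alignment planned to find further relatives were not run, as protein sequences were not used here.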

Additional observations from a re-analysis of the deposited data

How the results depend on the processing

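Under the 7 alternatives run for each gene, no log2 fold of Cyp4g11, CYP6AQ1 or FAR1 changed sign. The values of Cyp4g11, from 5.51 to 6.16, stayed within its counting interval of 5.07 to 6.22. CYP6AQ1 left its interval of 2.98 to 3.16 with plain totals (3.42), with the authors' TPM (3.58) and with its single most counted coding sequence (3.26). FAR1 left its interval with the authors' TPM (-0.13), and its interval held 0 with plain totals (-0.73 to 0.07) and with 1 coding sequence (-1.71 to 0.33). The last was fixed in advance, since 1 of 6 sequences with equal estimates only has fewer counts and so a wider interval. For Cyp4g11 and CYP6AQ1 a change of sign was hardly possible, since their folds are wider than the shifts between scalings. From TPM, the long pair of CYP6AQ1 held 90.95% (adult) and 77.3% (larva), in place of 92.5% and 80.6%. Genes past the size rule, 276 adult and 239 larval, became 560 and 142 with TPM, for which no interval was used. A fold of 2 gave 879 and 931 and a fold of 8 gave 120 and 86, by construction. With plain totals they were 413 and 160, so the adult share went from 53.6% to 72.1% (79.8% with TPM). The median log2 fold of the 6 named P450 genes was 2.20 (2.195), and 2.85 with TPM, where CYP6AS13 also passed 4-fold. Without Cyp4g11 and CYP6AQ1, an alternative chosen after seeing the data, it was 1.00, 1.56 with TPM and 0.08 without a count filter or with at least 100 counts. Of 54 alternative values of the main results, 41 stayed and 13 moved. The searches by heme motif and by protein alignment were not run. No paired analysis was possible because each stage has 1 library. The larval depth limits Cyp4g11 most, with 27 counts.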

Other observations

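None of the 12 genes next to Cyp4g11, CYP6AQ1 and FAR1 on the chromosome, 4 for each, met the size rule. This count is near the share over all compared genes, 3.14% (adult) and 2.72% (larva), and 12 genes are too few to read further. LOC100577996 and LOC411556, next to Cyp4g11, and LOC552110, next to FAR1, were under 10 CPM in both libraries and could not meet the rule. The 4 nearest genes of Cyp4g11 had ratios of adult to larva between 1.18 (LOC409487) and 2.92 (LOC411556, 32 adult and 9 larval counts, interval 1.36 to 6.95), against 49.0 for Cyp4g11. Next to CYP6AQ1, LOC102654959 had 0 adult and 43 larval counts and LOC102655102 had 2 and 21, both on the larval side. Both were under the 10 CPM that the size rule asks for, so they could not meet it either. On its other side LOC410379 stood at 30.8 CPM (adult) and 38.1 CPM (larva), and LOC408384 at 43.8 and 20.1 CPM. The neighbours of FAR1 lay on both sides: LOC725187 stood at 77.7 CPM (adult) and 216 CPM (larva), and LOC411361 at 172 and 82.3 CPM.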
